A study of Mus musculus with 3 samples.

Results

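Timd4, Lyve1 and Folr2 are 3 genes by which long-lived resident macrophages of the heart are commonly recognised, and they are described here across single cells of 3 mouse heart libraries. They are 3 of the 30406 genes shared by all 3 libraries and were taken by symbol, not by their values. Cells were kept with at least 1000 unique molecular identifiers (UMIs, each a distinct captured transcript), at least 200 genes, at most 10% mitochondrially encoded UMIs and at least 0.3% of UMIs on the complement genes C1qa, C1qb and C1qc, which macrophages express strongly. This C1q class held 2293 cells of the control diet library (CD), 2002 of the high fat diet library (HFD) and 3717 of the Western diet library (WD). All mice were wild type and 32 to 34 weeks old, and viable cells positive for CD45, F4/80 and CD11b had been sorted from collagenase-digested hearts. With 1 library per diet and the number of mice per library not given in the sources used here, differences between diets have no replicate check and none was tested. The make-up and length of the diets are also not given.

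Resident heart macrophages are seeded before birth and maintain themselves largely by local division, whereas macrophages with the chemokine receptor gene Ccr2 are replaced from blood monocytes. Timd4 encodes TIM-4, a receptor for phosphatidylserine on dying cells. Lyve1 encodes a hyaluronan receptor first known from lymphatic endothelium, and Folr2 encodes folate receptor beta, which is anchored to the membrane and found mainly on macrophages. H2-Aa encodes the alpha chain of an MHC class II molecule, by which cells present antigen to T cells.

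On GRCm38, the build named in the submitters' processing notes, GENCODE vM21 places protein-coding Timd4 on the plus strand of chromosome 11 (46810800 to 46844332). Lyve1 (110850607 to 110863239) and Folr2 (101839988 to 101857194) lie on the minus strand of chromosome 7. Folr2 overlaps the antisense gene Gm10602 and the pseudogene Gm45319 on the plus strand, and since the use of strand in counting is not given, reads of these genes may not be told apart from its own. RefSeq promoters on GRCm38.p6 were matched for 2 of the 3 genes, Timd4 with 1 window and Folr2 with 2. Because the genes were found together in cells more often than their single shares would give, and macrophage transcription factors are described below, the 250 bases before each start are shown 5′ to 3′ on the gene's strand. Capitals mark 2 motifs searched on both strands, which do not overlap in these windows. The first, read as GGAAGT on one strand and as ACTTCC on the opposite one, is a core bound by ETS factors such as PU.1. The second, read as TGCTGA on one strand and as TCAGCA on the opposite one, is a MAF half-site.
Timd4, chr11:46810549-46810798: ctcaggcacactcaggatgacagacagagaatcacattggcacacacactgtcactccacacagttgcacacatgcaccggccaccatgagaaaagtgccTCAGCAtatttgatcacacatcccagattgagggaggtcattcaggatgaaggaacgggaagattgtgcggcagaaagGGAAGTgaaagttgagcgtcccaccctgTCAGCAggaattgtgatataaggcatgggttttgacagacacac
Folr2, chr7:101845332-101845581: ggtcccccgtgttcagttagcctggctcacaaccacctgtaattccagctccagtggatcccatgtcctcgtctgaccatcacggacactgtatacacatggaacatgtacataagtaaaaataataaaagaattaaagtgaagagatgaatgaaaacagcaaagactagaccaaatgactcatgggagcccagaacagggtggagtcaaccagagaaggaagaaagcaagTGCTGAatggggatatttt
Folr2, chr7:101857191-101857440: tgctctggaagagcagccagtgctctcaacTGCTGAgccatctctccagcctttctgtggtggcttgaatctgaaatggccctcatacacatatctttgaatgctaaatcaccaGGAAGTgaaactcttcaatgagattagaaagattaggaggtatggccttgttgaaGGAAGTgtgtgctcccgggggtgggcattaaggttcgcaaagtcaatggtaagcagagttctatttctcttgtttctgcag
Among 32851 promoter windows of this length, 19.7% hold GGAAGT or its reverse, 16.1% TGCTGA or its reverse and 3.02% both. These matches are letters in a window and not shown to be bound sites.

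The libraries differed in more than diet. They held 17464149 (CD), 16630481 (HFD) and 79269380 UMIs (WD), with medians of 4319, 2953.5 and 12242 UMIs per kept cell. Per the file headers CD and HFD were written by software version 3.0.1 and WD by 7.2.0, and 1.34% of the WD barcodes occurred in the barcode list of CD, although the labels name the same kit. The median share of C1q genes was 2.17%, 2.25% and 0.801% of a cell's UMIs, and 12 CD, 12 HFD and 203 WD cells lay near the C1q limit, between 0.25% and 0.35%. The mitochondrial limit had removed 6.33% (CD), 11.9% (HFD) and 26.1% (WD) of barcodes past the UMI and gene minimums. Kept cells carried the macrophage genes Csf1r (884, 932 and 730 CPM), Cd68 (635, 670 and 247 CPM) and Lgmn (1251, 1026 and 728 CPM). Here CPM is the gene's UMIs per 1000000 UMIs of the cells summed. Over all UMIs, markers of other classes such as neutrophils were present too, with sums given further below. After the thinning described below, the median cell with or without each of the 3 genes had no UMI of the markers of any other class searched. Single cells did: 81 CD cells (3.53%), 7 HFD cells and 135 WD cells (3.63%) of the class carried 3 or more neutrophil markers, and 28 of those in CD and 67 in WD had Lyve1 detected. For endothelial markers these were 13, 18 and 0 cells. CD and HFD shared 10 kept barcodes, CD and WD 1 and HFD and WD none. WD values are therefore set beside the others, and what diet and what processing contributed to them cannot be told apart.

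Each of the 3 genes was found in all 3 libraries, and WD was highest for Lyve1 but lowest for Timd4 and Folr2. Timd4 stood at 104 CPM in CD (98.5 to 111), 104 CPM in HFD (96.6 to 112) and 92.3 CPM in WD (89.9 to 94.8). Lyve1 stood at 369 CPM in CD (358 to 380), 315 CPM in HFD (301 to 328) and 724 CPM in WD (717 to 730). Folr2 stood at 1095 CPM in CD (1076 to 1115), 1084 CPM in HFD (1059 to 1109) and 484 CPM in WD (478 to 489). Intervals here and below are 95% intervals that cover counting error only and not the spread between mice. CD and HFD overlapped for Timd4 and for Folr2, Lyve1 was lowest in HFD and highest in WD, and Folr2 was lowest in WD. In bulk sums of a class, fewer cells with a transcript and less of it per cell give the same value, so the cells were also counted one by one.

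To compare cells of unequal depth, each cell was thinned to 1000 UMIs and called detected with at least 1 UMI of the gene. Timd4 then had shares of 9.03% in CD (7.89 to 10.3), 8.24% in HFD (7.07 to 9.53) and 8.37% in WD (7.496 to 9.30). For Lyve1 the shares were 25.03% in CD (23.3 to 26.9), 21.8% in HFD (19.99 to 23.7) and 39.9% in WD (38.3 to 41.5). Those of Folr2 were 51.98% in CD (49.9 to 54.0), 45.4% in HFD (43.2 to 47.6) and 32.4% in WD (30.9 to 33.9). The 3 Timd4 shares overlapped, CD and HFD overlapped narrowly for Lyve1, and the 3 Folr2 shares were apart. Without thinning the shares were 29.7%, 21.4% and 49.9% for Timd4, 49.3%, 37.5% and 73.5% for Lyve1, and 70.9%, 60.4% and 73.7% for Folr2, in the order CD, HFD, WD. The deeper WD library thus came first for Timd4 and Folr2 before thinning and not after it. Most Timd4 calls rested on a single transcript: of the detected cells after thinning, 86.5% (CD), 81.2% (HFD) and 88.4% (WD) held exactly 1 UMI.

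**Figure D1:**
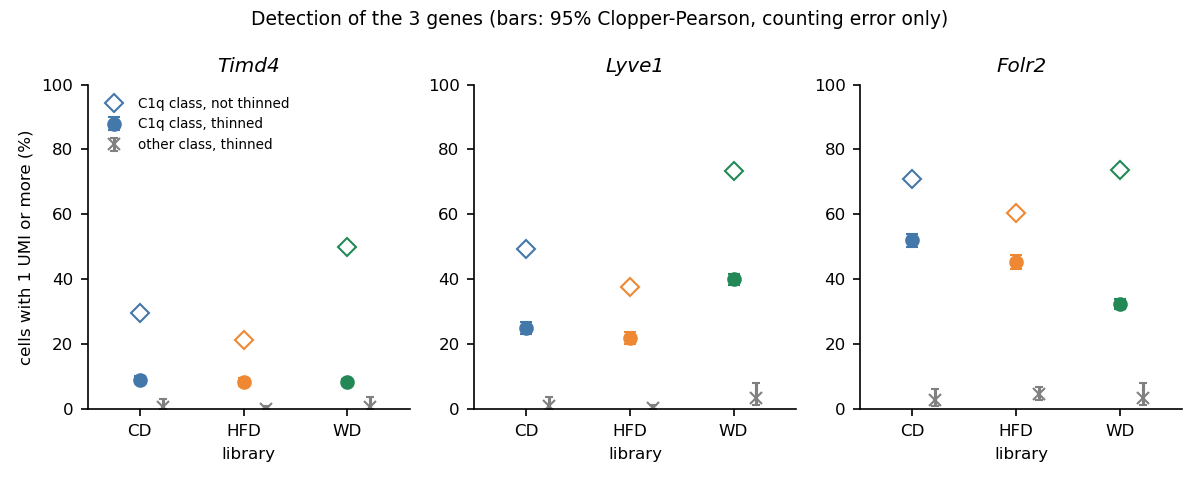
Share of cells with at least 1 UMI of Timd4, Lyve1 or Folr2 in each library, for the C1q class thinned to 1000 UMIs (filled circles) and not thinned (open diamonds), and, as grey crosses, for endothelial-marked cells (CD, HFD) or natural killer-marked cells (WD) thinned alike; bars are 95% Clopper-Pearson intervals. The thinned Timd4 shares lie between 8.24% and 9.03%, while Lyve1 reaches 39.9% in WD and Folr2 51.98% in CD.

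Free RNA in droplets can give UMIs in cells that do not express a gene. Near-empty barcodes, deposited for CD and HFD, held Timd4 at 35.1 and 53.2 CPM, Lyve1 at 85.9 and 116 CPM and Folr2 at 460 and 595 CPM. Endothelial-marked cells, which should lack the 3 genes and had medians of 2516 (CD, 185 cells) and 1753 UMIs (HFD, 460 cells), showed Timd4 in 0.541% and 0%, Lyve1 in 1.08% and 0.217% and Folr2 in 2.70% and 4.57% after thinning. The Timd4 count of 0 in 460 cells allows a share of up to 0.652%. In WD, where no endothelial-marked class was found, 143 natural killer-marked cells (median 6836 UMIs) showed Timd4 in 0.699%, Lyve1 in 3.50% and Folr2 in 3.50%. Neutrophil-marked WD cells (85 cells, median 4200 UMIs) showed them in 1.18%, 8.24% (3.38 to 16.2) and 2.35%. All these shares lay below those of the C1q class of the same library. They come from barcodes under the C1q limit, which leaves out cells with much macrophage RNA, so they may understate the background. Lymphatic endothelial markers, the other known source of Lyve1, reached 1.69 CPM in CD, 2.78 CPM in HFD and 11.2 CPM in WD in Lyve1-detected cells and 6.41, 2.33 and 12.9 CPM in the remainder, and no cell of the class carried 3 or more of them. In WD 209 further cells carried macrophage markers but fell under the C1q limit, and they had Timd4 in 3.83%, Lyve1 in 15.8% and Folr2 in 10.0%, so the limit leaves out some cells with these genes there.

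Between the HFD and CD libraries the levels of Timd4 and Folr2 differed by less than counting error, and Lyve1 was slightly lower in HFD. The log2 ratio of HFD over CD was -0.00 for Timd4 (-0.14 to 0.14), -0.02 for Folr2 (-0.06 to 0.03) and -0.23 for Lyve1 (-0.31 to -0.15). Of 5707 annotated protein-coding genes with at least 100 UMIs in every library, 2.51% were at least 1.5-fold higher and 2.66% at least 1.5-fold lower in HFD. None of the 3 genes was past 1.5-fold. The thinned Folr2 share was lower in HFD although its CPM was not, so no order of these libraries is read for Folr2. Over cells with at most 5% mitochondrially encoded UMIs the log2 ratio of Lyve1 was -0.31 and that of Folr2 -0.19.

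WD over CD gave a log2 ratio of -0.18 for Timd4 (-0.27 to -0.09), 0.97 for Lyve1 (0.93 to 1.02) and -1.18 for Folr2 (-1.21 to -1.15). Lyve1 was thus 1.96-fold higher and Folr2 2.27-fold lower in WD. At the same 1.5-fold limit 30.2% of genes were higher and 41% lower in WD, so a ratio of this size was common. The ratios moved with intron length: with genes cut into 5 groups of equal size by it, the median was -1.10 in group 1, with the shortest introns, and 1.58 in group 5, with the longest, against -0.06 and 0.03 for HFD over CD. Lyve1 belongs to group 2, where the median was -0.89 and the middle 80% of genes lay between -1.58 and 0.37, so its ratio was above that range. Folr2 in group 3 (median -0.47, from -1.35 to 0.97) and Timd4 in group 4 (median 0.35, from -0.93 to 1.61) lay below their medians and within the range. In cells with C1q genes at 1% or more, which keeps 2117 CD but only 1078 WD cells, the ratio was 0.24 for Timd4, the other direction, 1.53 for Lyve1 and -0.53 for Folr2.

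**Figure D2:**
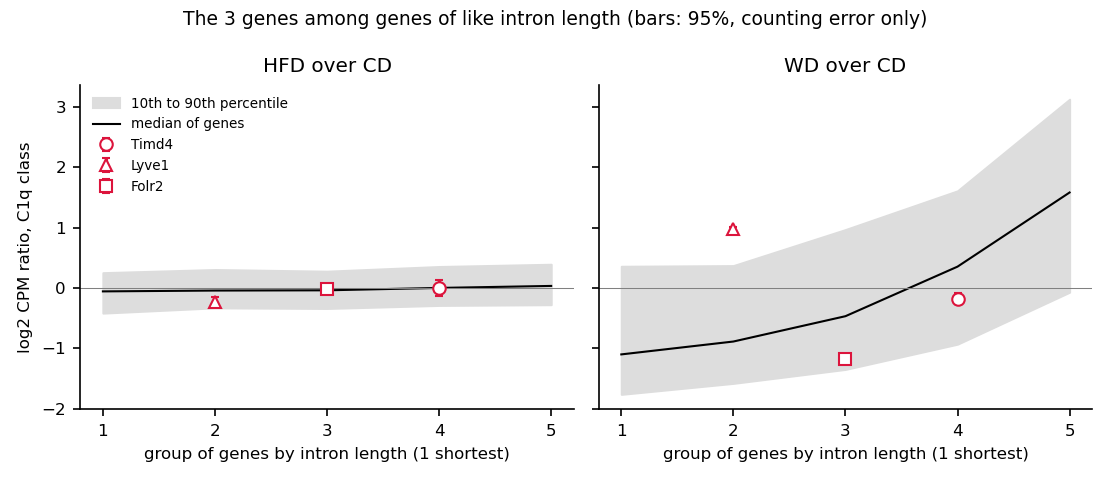
Log2 CPM ratio over CD (y axis) of Timd4, Lyve1 and Folr2 against the group of genes by intron length (x axis, 1 shortest), for HFD (left) and WD (right); the line is the median of all genes in the group, grey the 10th to 90th percentile, and bars are 95% counting intervals. In WD the medians climb from -1.10 to 1.58 and Lyve1 at 0.97 lies above the grey band, while in HFD all medians lie between -0.06 and 0.03.

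Single, double and triple detection showed that the 3 genes overlapped in cells without covering each other. At 1000 UMIs cells with none of them made up 41.2% in CD (39.2 to 43.3), 49.05% in HFD (46.8 to 51.3) and 45.7% in WD (44.1 to 47.3). All 3 were detected together in 66 CD cells, 62 HFD cells and 112 WD cells, which is 2.88% (2.23 to 3.65), 3.10% (2.38 to 3.95) and 3.01% (2.49 to 3.61). These triple shares overlapped between the libraries at this depth although the single shares of Folr2 did not. If the genes were found independently of each other, the product of the single shares would give 1.17%, 0.815% and 1.08%, so triple detection was 2.45, 3.80 and 2.79 times that product. Its share depends on depth and reached 23.5%, 21.0% and 19.4% at 4000 UMIs, in the 1293 CD, 537 HFD and 3635 WD cells deep enough. At that depth CD (21.2 to 25.9) and WD (18.1 to 20.7) did not overlap.

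Lyve1 with Folr2 was the commonest pair, in 16.7% of CD, 14.1% of HFD and 16.9% of WD cells, which is 1.41, 1.55 and 1.43 times the product of shares. Folr2 alone was found in 28.5% of CD and 24.5% of HFD cells but in 11.3% of WD cells. Lyve1 alone showed the reverse, with 4.62% of CD, 4.15% of HFD and 17.7% of WD cells. Timd4 without either of the other genes was rare, at 1.31% (CD), 0.949% (HFD) and 1.94% (WD), which is 0.403, 0.270 and 0.570 times the product.

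At 4000 UMIs, where fewer transcripts are missed, the genes were nested in CD and HFD. Folr2 was detected in 97.9% of Timd4-detected cells of CD (381 of 389) and in 94.9% of HFD (148 of 156), and in 96.4% and 97.0% of Lyve1-detected cells. Conversely, cells without Folr2 had Timd4 in 2.56% (CD) and 4.35% (HFD) and Lyve1 in 8.01% and 3.80%. Timd4 was found in 38.8% and 41.9% of the Folr2-detected cells, so Folr2 marked a broad set of cells and Timd4 a part of it at this depth. The nesting was looser in WD, where Folr2 was detected in 80.5% of Timd4-detected and 79.7% of Lyve1-detected cells, and cells without Folr2 had Timd4 in 12.3% and Lyve1 in 32.0%. There Lyve1 was the gene most often found with Timd4, in 87.6% of Timd4-detected cells against 78.7% in CD and 72.4% in HFD. Over the class Lyve1 was found in 64.1% of WD, 53.8% of CD and 43.2% of HFD cells at this depth, and Folr2 in 59.3%, 75.9% and 65.7%. Timd4 with Lyve1 was 1.37 (WD), 1.46 (CD) and 1.68 (HFD) times the product of shares, and Timd4 with Folr2 1.36, 1.29 and 1.44 times. The highest multiple possible falls as the share of the partner gene rises, so these multiples are not compared between libraries. Cells without Timd4 had Lyve1 in 56.0% (WD), 43.1% (CD) and 31.2% (HFD), and Folr2 in 52.0%, 66.4% and 53.8%. No closer link of Timd4 to Lyve1 in WD is read from these values.

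**Figure D3:**
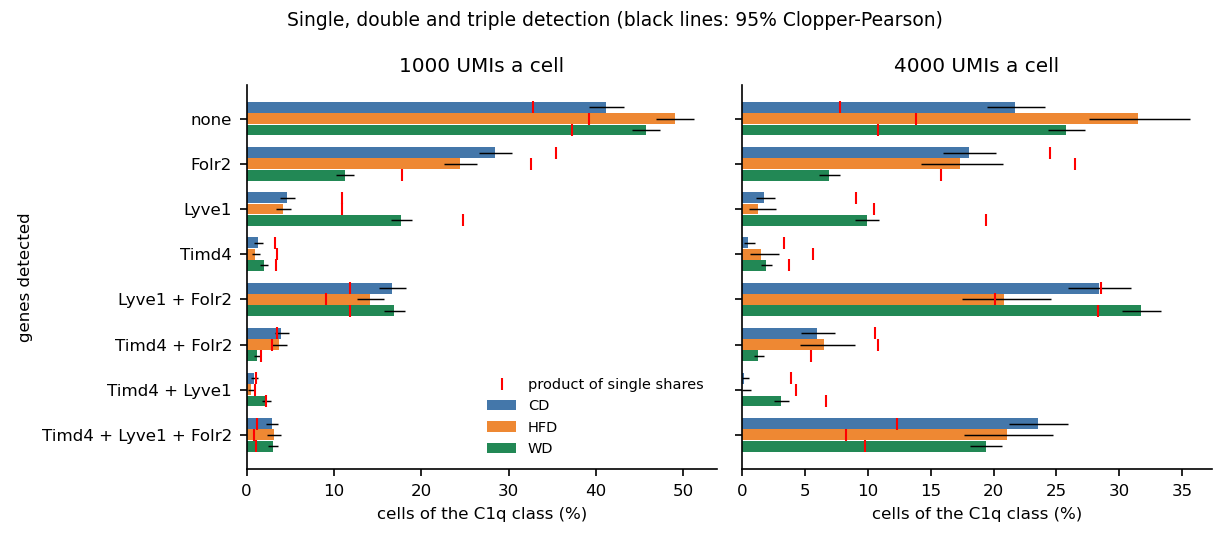
Share of C1q class cells with each combination of Timd4, Lyve1 and Folr2 detected, after thinning to 1000 UMIs (left) and 4000 UMIs (right); bars are libraries, black lines 95% Clopper-Pearson intervals and red marks the product of the single shares. Triple detection lies near 3% in every library at 1000 UMIs and between 19.4% and 23.5% at 4000 UMIs, to the right of its red mark each time.

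Ccr2, the marker of monocyte-derived macrophages, was less often found in cells with any of the 3 genes. Over the class it was detected in 13.9% of CD, 11.4% of HFD and 5.00% of WD cells after thinning and in 27.9%, 19.9% and 21.9% without. Among Timd4-detected cells it was found in 2.42% in CD (0.789 to 5.55), 1.82% in HFD (0.377 to 5.22) and 3.22% in WD (1.55 to 5.83), and in 15.0%, 12.2% and 5.17% of cells without Timd4. Among Lyve1-detected cells it was found in 5.40% (3.70 to 7.58), 1.83% (0.795 to 3.58) and 2.90% (2.10 to 3.88), against 16.7%, 14.0% and 6.40% without Lyve1. In percentage points the gap was widest for Folr2, with Ccr2 in 4.87% (3.72 to 6.25), 2.09% (1.26 to 3.24) and 1.75% (1.08 to 2.66) of Folr2-detected cells against 23.6%, 19.1% and 6.56% without. The intervals of cells with and without each gene were apart in every library, except for Timd4 in WD. Endothelial-marked cells had Ccr2 in 0% (CD, allowing up to 1.62%) and 0.435% (HFD, 0.0527 to 1.56). By their intervals, the shares among Timd4-detected cells in CD and HFD are thus not told apart from background. The same holds in HFD for Lyve1-detected and Folr2-detected cells. Natural killer cells express Ccr2 themselves and give no background for WD. With more UMIs per cell the shares with the genes were higher: at 4000 UMIs Ccr2 was found in 8.74%, 5.77% and 8.25% of Timd4-detected cells, against 36.6%, 40.7% and 14.6% without Timd4. With Lyve1 these shares were 14.9%, 7.76% and 8.79% against 43.7%, 47.9% and 20.4%. With Folr2 they were 17.9%, 10.8% and 8.53% against 60.6%, 68.5% and 19.4%.

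H2-Aa was found in most cells of the C1q class but less often in cells with the 3 genes. It was detected in 68.6% of CD, 80.4% of HFD and 69.0% of WD cells after thinning and in 81.1%, 89.6% and 90.9% without, and in 12.4%, 20.9% and 14.7% of the background classes named above. Timd4-detected cells had H2-Aa in 48.8% in CD (41.8 to 55.8), 66.7% in HFD (58.9 to 73.8) and 55.3% in WD (49.6 to 60.9), against 70.6%, 81.7% and 70.3% without Timd4. For Lyve1 these shares were 50.5%, 64.4% and 52.3% against 74.7%, 84.9% and 80.1%. For Folr2 they were 55.4%, 66.1% and 51.4% against 83.0%, 92.3% and 77.4%. HFD was highest in each of these sets, and its intervals did not overlap those of CD for cells with any of the 3 genes. Triple-detected cells had H2-Aa in 36.4% in CD (24.9 to 49.1), 64.5% in HFD (51.3 to 76.3) and 42.0% in WD (32.7 to 51.7). The levels were 1990, 4112 and 1686 CPM. HFD was also highest in cells with none of the 3 genes, at 94.3% against 86.5% (CD) and 85.05% (WD).

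In point values, both genes stood lower the more of the 3 genes a cell had. With 0, 1, 2 and 3 of them detected, Ccr2 stood at 359, 109, 42.7 and 39.4 CPM in CD, at 370, 62.5, 13.4 and 9.58 CPM in HFD and at 135, 69.97, 38.0 and 7.396 CPM in WD. H2-Aa stood at 9824, 4746, 2687 and 1990 CPM in CD, at 15457, 7125, 4327 and 4112 CPM in HFD and at 5129, 2932, 2014 and 1686 CPM in WD. In CPM the largest step was the first one. Between 2 and 3 genes the Ccr2 intervals overlapped in CD and HFD. Those of H2-Aa overlapped in HFD (4209 to 4446 and 3841 to 4396). The pairs were unlike, so the number alone does not describe them. In WD Ccr2 stood at 31.3 CPM with Lyve1 and Folr2 (629 cells). With Timd4 and Lyve1 it stood at 75.0 CPM (84 cells) and with Timd4 and Folr2 at 64.4 CPM (43 cells). Lyve1 alone gave 73.4 CPM there and Folr2 alone 61.8 CPM. In CD and HFD every pair had less Ccr2 than any gene alone. In CD H2-Aa stood at 4247 CPM with Timd4 and Folr2, against 4646 CPM with Folr2 alone and 2361 CPM with Lyve1 and Folr2. Cells with none of the 3 genes also had the lowest median share of C1q genes (1.91%, 2.01% and 0.695%) and cells with all 3 the highest (2.57%, 2.75% and 1.12%), and the part of the C1q level in these differences was not tested. In cells with C1q genes at 1% or more, Ccr2 and H2-Aa were again less often found with each of the 3 genes than without, in all 3 libraries.

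**Figure D4:**
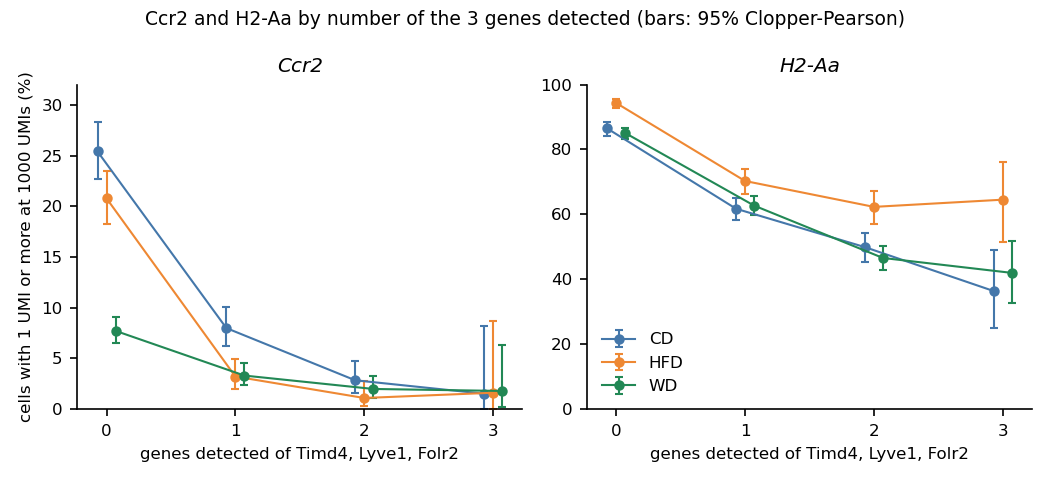
Share of C1q class cells with at least 1 UMI of Ccr2 (left) or H2-Aa (right) after thinning to 1000 UMIs, by the number of Timd4, Lyve1 and Folr2 detected in the cell; bars are 95% Clopper-Pearson intervals. Ccr2 drops from 25.4% (CD), 20.8% (HFD) and 7.71% (WD) with none of the genes to 2.84%, 1.09% and 1.98% with 2 of them. With all 3 it lies between 1.52% and 1.79%, in 66, 62 and 112 cells, with intervals that reach 8.16%, 8.66% and 6.30%. H2-Aa levels off at 64.5% in HFD.

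The genes that went with each of the 3 were ranked by the smallest of the 3 per-library ratios of CPM, in detected over not detected cells. Of 5750 genes with at least 100 UMIs in every library, 1 was at least 2-fold higher in Timd4-detected cells in all 3 libraries (0.0174% of those ranked) and 6 at least 2-fold lower (0.104%). For Lyve1 these were 11 (0.191%) and 31 (0.539%), and for Folr2 19 (0.33%) and 22 (0.383%). Of the higher genes 7 were shared by Lyve1 and Folr2, which is 63.6% of the Lyve1 and 36.8% of the Folr2 genes. Mmp12, a macrophage elastase, and Tmem119 were the 2 genes lower with every one of the 3. In CD and HFD alone, without WD, the counts were 8 and 46 for Timd4, 17 and 69 for Lyve1, and 51 and 62 for Folr2. Because detected cells overlap between the 3 genes, these lists are not independent of each other.

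Cd209g, Cxcl13, Cd209f and Vsig4 were the first 4 genes with Timd4. Cd209g, a lectin gene related to DC-SIGN, stood at 165 CPM against 79.6 in CD, 300.2 against 125 in HFD and 6.91 against 2.78 in WD, the 1 gene past 2-fold in all 3. Cxcl13, which encodes a chemokine for B cells, was next with 206.5 against 100.4 in CD, 222 against 54.5 in HFD and 6.71 against 3.45 in WD. Cd209f, another lectin gene of this family, stood at 448 against 229, 752 against 328 and 20.3 against 9.96 CPM. Vsig4, a receptor for complement C3 fragments, stood at 472 against 192, 189 against 75.7 and 111 against 57.4 CPM, which is 2.46-, 2.50- and 1.93-fold higher. The others of the first 8 were Ms4a8a, Gprc5c, the complement gene C4b and the ficolin gene Fcna, and their smallest log2 ratios lay between 0.76 and 0.86. The Cd209 genes are close copies of each other, so reads could have been split between them.

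Among the 6 genes lowest with Timd4, Mmp12 stood at 15.1 against 111 CPM in CD and 35.5 against 93.9 CPM in WD, and had 0 UMIs against 302 in HFD, which is at least 9.16-fold lower at 3 counts. Ccl17, a chemokine gene of antigen-presenting cells, had 1, 1 and 7 UMIs in Timd4-detected cells against 475, 131 and 245 in the more numerous remainder. In CPM these were 1.01 against 45.8 in CD, 1.82 against 21.7 in HFD and 1.38 against 4.48 in WD. Ccl17 was thus 3.24-fold (1.55 to 8.15) lower in WD. Cenpf, Ccnb2 and Mki67, all genes of dividing cells, were in this group too. Mki67 stood at 10.1 against 22.4 CPM in CD and 35.7 against 73.3 CPM in WD, and had 0 UMIs against 127 in HFD. Mki67 was thus 2.22-fold (1.19 to 4.69) lower in CD, at least 3.85-fold lower in HFD and 2.05-fold (1.77 to 2.39) lower in WD.

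The first 8 genes with Lyve1 shared Ltc4s, Fcna, Rcn3 and Vsig4 with the first 8 of Folr2. Slc9a3r2, a scaffold of ion transporters, stood at 41.6 against 17.6 CPM in CD, 56.5 against 19.0 in HFD and 25.9 against 9.10 in WD. Ltc4s, which makes leukotriene C4, stood at 1028 against 440, 973 against 320.1 and 346 against 132 CPM. Ednrb, an endothelin receptor gene, was 3.31-fold (CD), 3.01-fold (HFD) and 2.12-fold (WD) higher. Gypc, Serpinb1a, Fcna, Rcn3 and Vsig4 completed the first 8, each at least 2-fold higher in every library. On the low side Mmp12 was 10.7-fold (7.75 to 15.3), 20.7-fold (8.01 to 76.6) and 6.20-fold (5.68 to 6.79) lower, and Sh2d1b1, Tmem119, F11r, Bcl2a1a and Ramp1 followed with smallest differences of -2.04 to -1.43 on the log2 scale. Bcl2a1a and Bcl2a1d, a gene low with Folr2, are close copies.

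Cd209f and Cd209g also led the genes that went with Folr2. Cd209f stood at 406 against 73.5 CPM in CD, 688 against 93.7 in HFD and 21.1 against 5.63 in WD, or 5.52-, 7.35- and 3.74-fold higher. Cd209g was 4.91-, 6.85- and 3.87-fold higher. Ccl8, a chemokine gene, stood at 1302 against 334, 1149 against 283 and 149 against 46.8 CPM. Fcna, Vsig4, Ltc4s, Rcn3 and C4b were the others of the first 8, each at least 2-fold higher in every library. Ccr2 itself was among the 6 lowest, 4.12-fold (3.72 to 4.58) lower in CD, 9.06-fold (7.46 to 11.1) in HFD and 2.70-fold (2.51 to 2.91) in WD, together with Sh2d1b1, F11r, the intermediate filament gene Nes, Bcl2a1d and Mmp12.

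**Figure D5:**
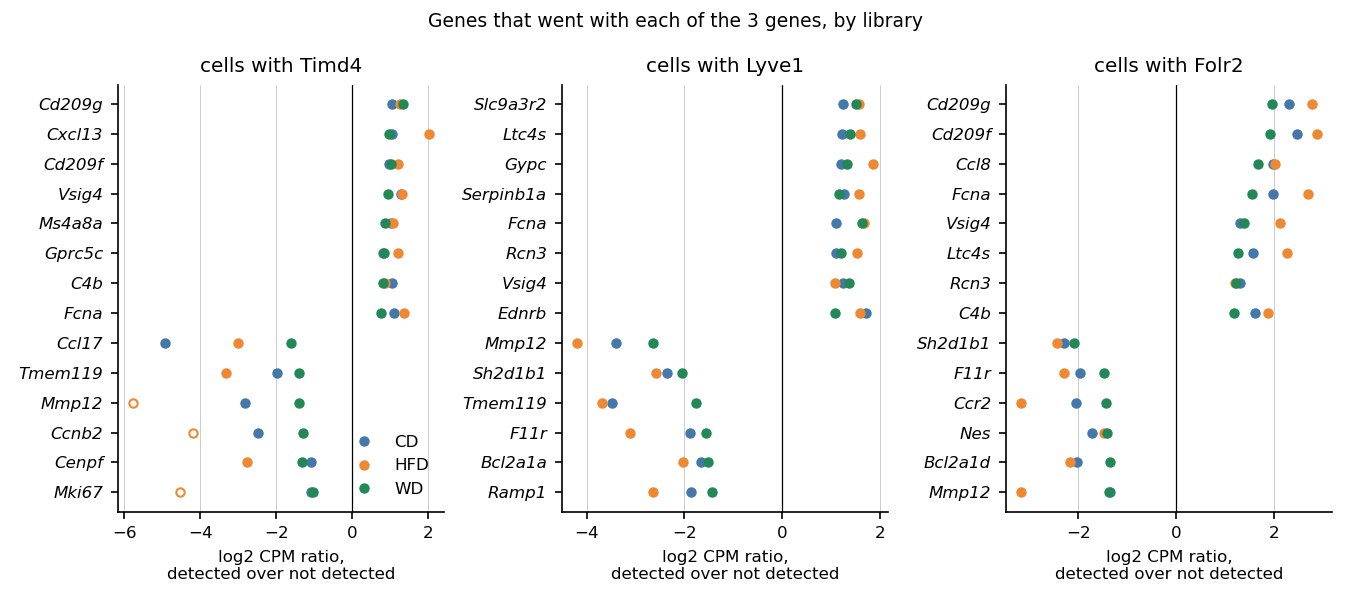
Log2 ratio of CPM in detected over not detected cells (x axis) for the 8 highest and 6 lowest genes (y axis) with Timd4, Lyve1 and Folr2, 1 point per library; open points have 0 UMIs in the detected cells, so that their position depends on the added 0.5 UMI. Points to the left spread widest for Timd4, whose detected cells are fewest, and the WD points lie nearest to 0 for 5 of the 6 genes low with Folr2 and for all 6 low with Lyve1.

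Among cells that had Lyve1 and Folr2, those with a Timd4 call as well stood apart little from those without a call. Of 1475 genes with at least 100 UMIs there in every library, none was 1.5-fold higher or lower in all 3 (0%; 66, 62 and 112 cells with Timd4). Vsig4 came closest, at 570 against 372 CPM in CD, 366 against 117 in HFD and 172 against 120 in WD, or 1.53-fold (1.29 to 1.81), 3.13-fold (2.30 to 4.24) and 1.44-fold (1.26 to 1.64) higher. Clec10a, a galactose lectin gene, was 1.33-, 1.47- and 1.28-fold higher. For Trappc4, next in the ranking, the interval of the ratio included 1 in all 3 libraries, and for Rassf1 and Eps15 it did in CD and HFD. The cells without a Timd4 call still held Timd4 at 144 CPM in CD, 152 CPM in HFD and 137 CPM in WD. These values lay above the 104, 104 and 92.3 CPM of the whole class. Many of these cells may thus carry the transcript, so the split cannot show how cells with and without Timd4 differ.

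Other genes of resident macrophages went with all 3 genes. Of 22 such genes, all with enough UMIs, 7 were at least 1.5-fold higher with Timd4 in all 3 libraries, 14 with Lyve1 and 15 with Folr2, and none was lower. Over all genes ranked, 0.313%, 1.1% and 1.7% were higher by this limit. The list was put together with results of these data known and is no independent evidence of direction. Its median log2 ratio with Folr2 was 1.27 (CD), 1.59 (HFD) and 0.77 (WD), where the median of all genes was 0.02, 0.09 and 0.05. With Lyve1 it was 0.85, 1.04 and 0.79 and with Timd4 0.65, 0.96 and 0.46. Cd163, a haemoglobin scavenger receptor gene, was past the limit with Lyve1 (log2 ratios of 0.80, 1.04 and 0.72) and Folr2 (1.31, 1.72 and 0.66) but not with Timd4 (0.64, 1.06 and 0.42). Ccl24, an eotaxin gene, was past it with all 3 genes, at 0.92, 1.13 and 0.68 with Timd4.

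MHC class II genes were lower as a group. Of 12 genes 9 had enough UMIs, and at least 1.5-fold lower in all 3 libraries were 2 with Timd4, 8 with Lyve1 and 7 with Folr2, with none higher. The share of all genes lower by this limit was 0.748%, 1.58% and 1.48%. H2-Eb1, a class II beta chain gene, had log2 ratios of -1.55 (CD), -1.59 (HFD) and -1.10 (WD) with Lyve1 and -1.44, -1.58 and -1.12 with Folr2. Ciita, which switches on class II transcription, was at -0.99, -1.83 and -1.09 with Lyve1 and -1.30, -1.51 and -1.07 with Folr2. With Timd4 the 2 genes were H2-Eb1 and the peptide-loading gene H2-DMb2, while the list's median was -0.89, -1.18 and -0.53.

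Of 18 genes of monocyte-derived macrophages 11 had enough UMIs, and 3, 6 and 5 were lower by that limit in all 3 libraries with Timd4, Lyve1 and Folr2, against the shares of all genes of 0.748%, 1.58% and 1.48%. None was higher in all 3, but in HFD alone 2, 1 and 1 were at least 1.5-fold higher. Ccr2, Cd52 and the fibronectin gene Fn1 were lower with each. Fn1 stood at -2.14 (CD) and -0.69 (WD) on the log2 scale with Timd4, and had 0 UMIs against 290 in HFD, at least 8.80-fold lower.

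The pathways named by the 3 receptors showed less. Of 24 efferocytosis genes, which serve the uptake of dying cells as Timd4 does, 15 had enough UMIs, and with Timd4 none was 1.5-fold higher or lower in all 3 libraries. Gas6, a bridge between phosphatidylserine and the TAM receptors, stood at 0.52, 0.74 and 0.59 on the log2 scale. With Lyve1 and Folr2 Gas6 was past the limit (0.76, 0.96 and 0.89 with Lyve1, 1.22, 1.44 and 0.94 with Folr2), and the TAM receptor gene Axl was past it on the low side (-0.91, -1.59 and -0.92 with Lyve1, -1.13, -1.60 and -0.87 with Folr2). Mertk, another TAM receptor gene, stood at 0.12, 0.78 and -0.11 with Timd4, with no shared direction. Over all genes ranked, 0.313% (Timd4), 1.1% (Lyve1) and 1.7% (Folr2) were at least 1.5-fold higher in all 3 libraries, and 0.748%, 1.58% and 1.48% lower. Single genes past the limit, as Gas6 and Axl here, are not read as a result about the list.

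Of 16 hyaluronan genes only Cd44, Hyal2 and Tlr4 had enough UMIs. Hyal2, a membrane-bound hyaluronidase, was past 1.5-fold with Lyve1 (0.72, 0.99 and 1.27) and with Folr2 (1.18, 1.54 and 1.11), and stood at 1.11, 0.81 and 0.47 with Timd4. Cd44, the main hyaluronan receptor of leukocytes, stood at -0.49, -0.34 and -0.24 with Lyve1. Of 21 folate and one-carbon genes 6 had enough UMIs, and with Folr2 1 was past the limit in all 3 libraries, the mitochondrial enzyme gene Mthfd2 at -0.83, -1.03 and -0.60. Folr1, the neighbour of Folr2 on chromosome 7, was not among the 6. Over all genes ranked, 1.1% (Lyve1) and 1.7% (Folr2) were higher by the same limit, and 1.48% lower with Folr2. Hyal2 and Mthfd2 are thus given as single genes and not as a result about their lists.

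Of 25 transcription factor genes 16 had enough UMIs. Maf, whose half-site was searched above, had log2 ratios of 0.49, 0.54 and 0.31 with Timd4, 0.58, 0.70 and 0.53 with Lyve1 and 0.78, 0.90 and 0.50 with Folr2, on the higher side each time but under 1.5-fold in at least 1 library. Spi1, which encodes PU.1, lay between -0.18 and 0.08 with all 3. Runx3 was the 1 factor past 1.5-fold in all 3 libraries, lower with Lyve1 (-1.44, -1.15 and -0.74) and Folr2 (-1.55, -1.78 and -0.69), and at -1.65, -1.65 and -0.54 with Timd4. Over all genes ranked, 1.58% (Lyve1) and 1.48% (Folr2) were lower by this limit, and 1 of 16 is not read as a result about the list.

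Cells with Timd4, Lyve1 and Folr2 all detected, set against cells with none, gave larger counts than any single gene. Of 5750 genes 79 were at least 2-fold higher in all 3 libraries (1.37%) and 90 at least 2-fold lower (1.57%), from 66, 62 and 112 triple-detected cells. Of the 22 resident genes 19 were at least 1.5-fold higher in all 3 (4.14% of all genes), with medians of 1.96 (CD), 2.40 (HFD) and 1.42 (WD) on the log2 scale. Of the 9 MHC class II genes with enough UMIs 8 were at least 1.5-fold lower in all 3 (2.8% of all genes), with medians of -2.27, -2.12 and -1.70. Of the 11 genes of monocyte-derived macrophages 7 were lower and 1, Ifitm3, was higher in all 3 at the same limit. Within Folr2-detected cells, Lyve1 split fewer genes, with 4 of 3456 at least 1.5-fold higher (0.116%) and 7 lower (0.203%) in all 3 libraries.

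Markers of other cells moved with some of these contrasts. Summed macrophage markers were higher with each gene, for Folr2 at 4694 against 3614 CPM (CD), 4677 against 3492 (HFD) and 6173 against 4827 (WD). These markers include Cd163, itself 1 of the resident genes above and at 665 CPM over the WD class, and its part in the sums was not tested. Endothelial markers were lower with Folr2, at 48.1 against 106, 121 against 163 and 2.87 against 4.11 CPM. Between cells with none and with all 3 genes, neutrophil markers went from 741 to 223 CPM in CD, from 82.7 to 28.8 in HFD and from 1156 to 896 in WD. Endothelial markers went from 96.5 to 9.85, from 160 to 57.5 and from 3.88 to 1.85 CPM. Fibroblast markers went from 258 to 105, from 339 to 134 and from 103 to 63.5 CPM, and mural markers from 31.9 to 3.28, from 37.9 to 14.4 and from 9.18 to 4.31 CPM. All of these were lower with the 3 genes in all 3 libraries, and their part in the ratios was not tested. Haemoglobin genes stood at 3332 CPM with Timd4 against 304 without in CD and at 731 against 15.9 in WD. Of those UMIs 1 cell each held 3184 of 3319 and 3662 of 3734. Without cells over 100 haemoglobin UMIs the values were 137 against 34.1 and 14.1 against 15.9 CPM. In CD the next cell with Timd4 held 60 of the UMIs left, so the remaining excess rests in part on 1 cell. HFD stood at 7.25 against 8.60 CPM.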

How the data were processed

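Droplet-based single-cell libraries (10x Genomics 3′ v2 per the labels) were analysed, 1 per diet. Raw UMI counts were deposited for each barcode and gene, and per the file headers the software that wrote them was version 7.2.0 for WD and 3.0.1 for the other libraries. GRCm38 and Seurat are named per the submitters' processing notes, while the sources used here do not give how the authors filtered cells, set the strand or counted introns. CD and HFD list 737280 barcodes each and WD 6885.

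Cells were kept as the report states, and genes shared by Ensembl ID were used. UMIs were summed to CPM with exact Poisson intervals, shares got Clopper-Pearson and ratios exact conditional intervals, all at 95% and for counting error only, and a count of 0 was read against 3 counts. Thinning drew UMIs without replacement (seed 1). Partner ratios used all UMIs of the cells, split by detection at 1000 UMIs, with 0.5 UMI added and the 3 genes left out of the totals. Genes named are the 8 with the highest smallest log2 ratio and the 6 with the lowest largest one for each of the 3 genes, leaving out C1q genes, the first 5 for Timd4 within Lyve1 and Folr2 cells, and up to 4 per list. Triple-detected, Lyve1-within-Folr2 and intron-length descriptions, the count without WD and named list genes beyond this rule were chosen after values were seen. Classes outside the C1q class needed 3 markers. Doublets were excluded at the sort per the labels, and those formed in droplets were not removed from the main values. An alternative left out the barcodes of highest doublet score, after Scrublet (57 in CD, 59 in HFD and 182 in WD). Further alternatives changed depth, the C1q and mitochondrial limits and the UMI minimum. No test between diets was made. The 3 genes and all lists were chosen with earlier results of these data known. Python 3.11.15, numpy 2.4.6, scipy 1.17.1, pandas 2.3.3 and scikit-learn 1.9.0 were used.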

Additional observations from a re-analysis of the deposited data

How the results depend on the processing

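No paired analysis was possible because each diet has 1 library. Of 36 alternatives of the diet ratios 28 stayed within counting error, 7 moved and 1 reversed. With C1q genes at 1% or more, WD over CD was 0.24 for Timd4, the reversed one, 1.53 for Lyve1 and -0.53 for Folr2, and at 0.1% or more 0.92 for Lyve1 and -1.23 for Folr2. HFD over CD was -0.31 for Lyve1 and -0.19 for Folr2 with at most 5% mitochondrially encoded UMIs, and -0.080 for Folr2 with cells thinned before summing. All are log2 ratios, and why they moved was not tested.

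Shares of detected cells rose with depth, as more UMIs per cell give more cells with at least 1. The triple share in CD, HFD and WD was 9.85%, 8.34% and 8.39% at 2000 UMIs, 23.5%, 21.0% and 19.4% at 4000 UMIs, and 23.8%, 14.7% and 44.7% without thinning. At 2000 UMIs Ccr2 was found in 6.84% of Timd4-detected cells in CD, in 8.21%, 4.03% and 4.44% of Lyve1-detected cells, and in 8.94%, 4.63% and 4.65% of Folr2-detected cells, in the order CD, HFD, WD. H2-Aa was then found in 59.0%, 79.0% and 63.8% with Timd4, 59.6%, 73.2% and 63.6% with Lyve1, and 65.1%, 77.7% and 63.6% with Folr2. Without thinning Ccr2 was found in 13.4%, 6.76% and 21.6% with Timd4, 17.6%, 7.07% and 19.1% with Lyve1, and 18.5%, 8.10% and 19.2% with Folr2. H2-Aa was then found in 73.9%, 83.2% and 88.5% with Timd4, 73.4%, 82.4% and 88.9% with Lyve1, and 75.6%, 84.5% and 88.8% with Folr2. With C1q genes at 1% or more, which left 1078 WD cells, the WD triple share was 6.22%, and Ccr2 was found there in 0.763% with Timd4, 1.01% with Lyve1 and 0.571% with Folr2, and H2-Aa in 42.0%, 41.5% and 41.7%. Under all 72 alternatives of these overlaps the share, as a point value, stayed under that in cells without the gene. For Timd4 in WD without thinning this was Ccr2 in 21.6% (19.7 to 23.5) against 22.2%, a difference within counting error.

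Counts of genes past 2-fold in all 3 libraries depended on the settings, and 26 of 36 alternatives were more than 1.5 times away. Against 1 higher and 6 lower with Timd4, there were 5 and 12 with thinned UMIs, 2 and 27 with a minimum of 20 UMIs, and 0 and 1 with a minimum of 300 UMIs. For Timd4, 0 were higher with C1q genes at 1% or more, and 11 were lower without the cells of highest doublet score. Against 11 and 31 with Lyve1, there were 17 and 47 with thinned UMIs, 6 and 12 with a minimum of 300 UMIs, 70 lower with a minimum of 20 UMIs, and 5 higher with C1q genes at 1% or more. Against 19 and 22 with Folr2, there were 10 and 11 with a minimum of 300 UMIs, 11 and 39 with C1q genes at 1% or more, 41 lower with thinned UMIs and 43 lower with a minimum of 20 UMIs. Leaving out WD, an alternative chosen after seeing the data, gave 8 and 46 with Timd4, 17 and 69 with Lyve1 and 51 and 62 with Folr2. At 1000 UMIs a Timd4 call mostly rests on 1 UMI, so many cells without a call may carry the transcript.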

Other observations

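Outside the C1q class, Timd4 was also found in a small group of WD barcodes, some of them with genes of dendritic cells, which was noticed after the values were seen. Under the C1q limit, 14 WD barcodes held 4 or more Timd4 UMIs without thinning, against 0 in CD and 1 in HFD. Barcodes under the limit numbered 1058 in WD (median 8090 UMIs), 386 in CD (3252) and 715 in HFD (2081). The 14 had a median of 23575 UMIs, so these counts are not compared between libraries. The barcode with the most held 55 Timd4 UMIs, where the highest count in the C1q class was 23, and it had 0 UMIs of Lyve1 and 0 of Folr2, with 54 of Wdfy4, 61 of Cadm1, 14 of Itgae and 13 of Clec9a, genes of the cross-presenting type of dendritic cell. Summed over the 14 barcodes, the 8 dendritic markers gave 1350 CPM against 577 CPM in the other 1044 barcodes under the limit. Single genes were uneven: Wdfy4 was found in all 14, Flt3 in 9 and Zbtb46 and Cadm1 in 8 each. Clec9a was found in 4 of them, Xcr1 in 3 and Itgae in 2. The barcode with the most Timd4 held 54 of the 177 Wdfy4, 61 of the 102 Cadm1, 14 of the 31 Itgae and 13 of the 25 Clec9a UMIs. Wdfy4 was also found in 2268 and Cadm1 in 1485 of the 3717 WD cells of the C1q class. There they stood at 98.3 and 77.1 CPM, against 563 and 325 CPM in the 14. Macrophage markers stood at 2037 CPM in the 14 against 1972 CPM in the other barcodes under the limit. Cd163 was found in 10 of the 14, so the group is given no name.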
